A study of Mus musculus with 26 samples.

Results

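NKT cells grown from thymic DN1eP precursors in culture (DN1eP-NKT, 4 libraries) were compared with stage 1 NKT cells sorted directly from the thymus (NKT-1, 5 libraries), together 9 of the 26 libraries of the series. The members were chosen by their sample labels. DN1eP-NKT cells came from DN1eP thymocytes kept for 10 days on a monolayer of OP9/Dll-1 stroma in medium with serum, mouse IL-2 at 5 ng/ml and mouse IL-7 at 5 ng/ml. DN1eP, the starting fraction, is lineage-negative, CD44-positive, CD25-negative, CD24-low, CD5-positive, CD27-positive, Ly108-negative and CXCR3-positive, and lacks the Vα14Jα18 receptor on its surface. NKT-1 cells bound CD1d dimer loaded with αGalCer, carried TCRβ, and were negative for CD44 and NK1.1. Both groups are labelled as positive for the Vα14Jα18 receptor on the surface, and both come from wild-type C57BL/6 mice of 6 to 8 weeks. Culture, cytokines, stromal layer and sort all differ between the groups at once and cannot be told apart. The labels do not say whether replicates are separate animals or cultures. The p-values thus measure only the spread between libraries, estimated over all 26 of the series, which may be technical. In bulk RNA, fewer cells of a type and less RNA per cell cannot be told apart.

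Invariant NKT cells are T cells whose nearly fixed receptor recognises lipids on CD1d. In the thymus they are classically ordered by CD44 and NK1.1, from stage 1, which is CD44-low and holds proliferating cells and cells able to make IL-4, through stage 2 to stage 3, which carries NK receptors, T-bet and cytotoxic granules. The transcription factor PLZF (Zbtb16) is the hallmark regulator of the lineage. OP9 is a stromal line derived from mouse bone marrow, and OP9/Dll-1 cells display the Notch ligand Delta-like 1, which directs progenitors toward T cells. IL-2 and IL-7 act through STAT5, and IL-2 needs CD25 (Il2ra) for its high-affinity receptor.

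The deposited values are FPKM, fragments scaled by transcript length and by library total. When genes under 1 FPKM are set aside, the 26 libraries fall into 2 sets by their median FPKM, and the sets do not follow the groups. All 4 DN1eP-NKT libraries (medians 13.25 to 13.64) and NKT-1 libraries 1 and 2 (13.4 and 13.71) lie in the higher-median set, and NKT-1 libraries 3 to 5 (8.99 to 9.8) in the lower-median set. Each gene was therefore tested by limma with library set as a term, and a gene is called kept when its Benjamini-Hochberg adjusted p is under 0.05 and all 4 DN1eP-NKT libraries lie beyond both NKT-1 library 1 and library 2 in the direction of the call. DN1eP-NKT lies in 1 set, so the term comes from the thymic stages, and that it holds for cultured cells is assumed. The depth, estimated roughly from what 1 fragment is worth, was 14.96 M fragments in DN1eP-NKT library 1 and 1.12 to 2.45 M in libraries 2 to 4, and 14.79, 1.14, 19.05, 19.5 and 19.05 M in NKT-1 libraries 1 to 5. The half-width of the deposited interval of a gene at 20 to 100 FPKM was 5.99% to 7.01% in the deep libraries and 15.91% to 21.79% in the shallow ones. DN1eP-NKT library 1 correlated with libraries 2 to 4 at 0.904 to 0.925 over genes, and these with each other at 0.939 to 0.956.

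Of 11663 tested genes, 2528 (21.7%) passed the limma test and 2351 (20.2%) were kept. The kept genes were 1126 higher in DN1eP-NKT (9.65%) and 1225 lower (10.5%), and the median log2 difference of all tested genes was -0.10. Differences are on the log2(FPKM + 1) scale, which understates the change of low genes. Rises and falls are stated relative to NKT-1, and are not changes from the DN1eP cells before culture. Large differences were more often rises: 151 kept genes stood at a log2 difference of 3 or more and 56 at -3 or less. Among the 151 were stroma markers such as Cxcl12 (6.90) and Fn1 (5.12), treated below. A gene present in DN1eP-NKT alone or in NKT-1 alone could enter the test. Of the kept genes, 979 higher and 621 lower had DN1eP-NKT libraries beyond all 5 NKT-1 libraries. Within the higher-median set alone, 1028 of the higher and 939 of the lower genes were also called. The rule for keeping a gene fixes its direction in that set. Without the term 998 and 595 were also called, and 234 kept genes had the opposite sign, so falls rest more on the term than rises do.

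**Figure D1:**
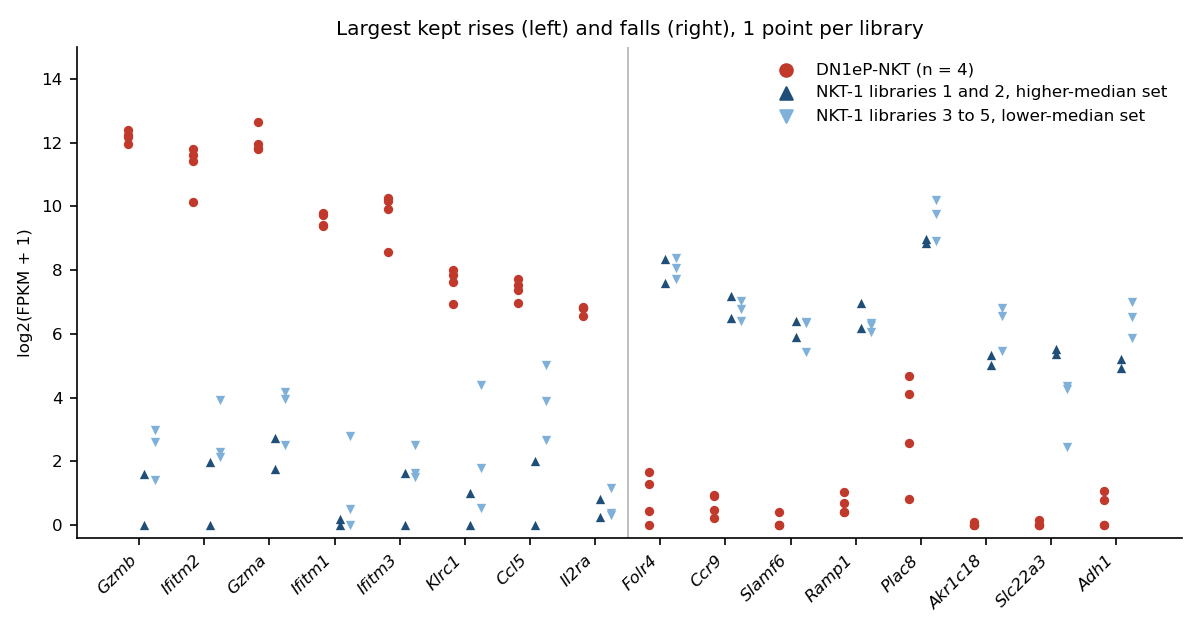
The 8 largest kept rises and 8 largest kept falls among genes outside the list of stroma markers, 1 point per library. Each has a group mean of at least 10 FPKM and libraries that do not overlap. The stroma marker Cxcl12, with a log2 difference of 6.90, is therefore not shown. The horizontal axis names the gene and the vertical axis is log2(FPKM + 1), with DN1eP-NKT in red circles and NKT-1 in blue triangles split by library set. Gzmb is at 3940 to 5388 FPKM in the 4 red points and at 0 to 6.96 in the 5 blue ones, and Folr4 at 0 to 2.17 against 194 to 335.

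Defining T cell genes were present in every library of both groups. Cd3e, a chain of the CD3 complex, was at 255 to 314 FPKM in DN1eP-NKT and at 277 to 1129 in NKT-1 (adjusted p = 0.322). Of 9 T and NKT markers, 6 were kept lower and 0 higher, with a median log2 difference of -0.81. For this and the next lists, the shares of all tested genes were 10.5% lower and 9.65% higher. The B cell factor Pax5 was listed at 0 in all 9 libraries. Of 5 tested B cell markers 2 were kept higher, the receptor gene Cd22 (15.5 to 23 FPKM against 0 to 0.0372) and the factor gene Ebf1, listed at 0 in NKT-1. Ebf1 was at 0.271 FPKM in DN1eP-NKT library 1 and 1.98 to 2.23 in libraries 2 to 4, and the part of RNA from other cells in it was not tested. Mast cell and basophil markers summed to 4.4 to 34.3 FPKM in DN1eP-NKT and to 0 to 0.411 in NKT-1 except library 3, at 123, where the protease gene Prss34 was at 68.1 and Mcpt8 at 49.2. Of their 6 tested members 1, the stem cell factor receptor Kit, was kept higher, at 3.22 to 8.12 against 0 to 0.2 FPKM. Of 10 myeloid and dendritic markers tested, 1 was kept (Fcgr3, higher), with sums of 17.8 to 36 FPKM against 18.2 to 110. Fcgr3 lost its place without DN1eP-NKT library 1 or 3, or NKT-1 library 1, 2 or 4, when 0 were kept. The lysozyme gene Lyz2 was listed at 0 in all 4 DN1eP-NKT libraries. The 2 tested erythroid markers were not kept, and without DN1eP-NKT library 3 there was 1. Of the 8 tested immature thymocyte markers 2 were kept lower, Cd4 and Cd1d1. The gamma-delta markers Sox13, Cd163l1 and Blk were kept lower among 4 tested, and Cd163l1 was not called without the term (-1.30, adjusted p = 0.108). The other, 5830411N06Rik, was at 27.5 to 38.3 FPKM against 6.96 to 18.9 (1.54, adjusted p = 0.0775), and it was kept higher with only the higher-median set, with only the compared groups in the fit, or after quantile normalization.

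Stromal genes were present in the cultured libraries and near 0 in stage 1. Of 31 fibroblast and stroma markers, 12 fell below the filter on low values and 17 of the 19 tested were kept higher, with a median log2 difference of 3.82. Since the filter passes genes that are high in 1 group, that count is a description, and with a filter of 5 FPKM it was 4. The markers summed to 122, 520, 751 and 723 FPKM in DN1eP-NKT libraries 1 to 4 and to 3.74 to 9.16 in NKT-1. Library 1 was thus the lowest of the 4 cultured libraries and still above every stage 1 library. Cxcl12, the chemokine that retains progenitors in bone marrow, was at 53.5, 125, 179 and 191 FPKM in DN1eP-NKT, and was listed at 0 in 4 NKT-1 libraries and at 0.209 in the other. Fibronectin (Fn1) was at 6.86, 45.7, 63.6 and 60.9 FPKM against 0 to 0.0994. The collagen gene Col1a1 was at 2.43, 28.6, 49 and 40.8 FPKM against 0 to 0.359. Dll1, the ligand that the layer was engineered to display, was itself at 0.647, 6.94, 8.78 and 8.49 FPKM and in NKT-1 at 0.0192 or 0. Col3a1 was at 0.71, 8.21, 15.7 and 11.1 FPKM against 0.0354 or 0.

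These values bear on each rise below, since RNA of the OP9 layer could add to a DN1eP-NKT level. The 27 stroma markers whose DN1eP-NKT mean reached 1 FPKM had in library 1 between 0.0482 and 0.399 times the mean of libraries 2 to 4, with a median of 0.122. The 1126 kept higher genes had a median of 0.863, and 114 of them (10.1%) were under 0.4, against 5% of the 10587 tested genes whose mean reached 1 FPKM. The ratio, or the level in library 1, is given below for a named rise under 0.4, and whether its level holds RNA of the layer was not tested. Library 1 also differs in depth, so the ratio is no measure of stroma alone.

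**Figure D2:**
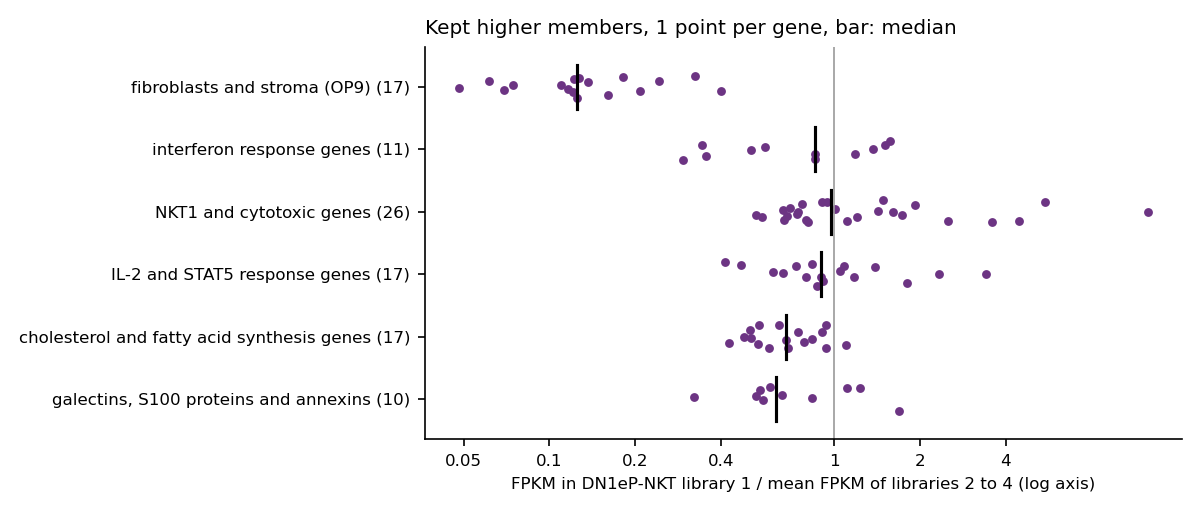
Level in DN1eP-NKT library 1 divided by the mean of libraries 2 to 4 (log axis) for the kept higher members of 6 gene lists, 1 point per gene, with the number of genes in brackets and the median as a bar. All 17 stroma genes lie under 0.4, with a median of 0.125, and the 26 NKT1 and cytotoxic genes have a median of 0.977.

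Cytotoxic and NK receptor genes had the highest median rise of any list. Of 31 tested NKT1 and cytotoxic genes, 26 were kept higher and 1 lower (the granule proteoglycan gene Srgn), against 9.65% and 10.5% of all tested genes. The median log2 difference of the list was 3.84. Within the higher-median set 25 were higher and 0 lower, but the rule for keeping a gene already fixes the direction there. This list too was drawn up with earlier results of these data known.

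Granzyme B (Gzmb; mm9 chromosome 14, 56877695 to 56881097), a protease that triggers death of target cells, was at 3940, 5388, 4818 and 4632 FPKM in DN1eP-NKT. In NKT-1 it was at 2.05, 0, 6.96, 5.12 and 1.67 FPKM. The groups were far apart, with means of 4695 ± 597 and 3.16 ± 2.81 (SD, n = 4 and 5) and a log2 difference of 11.20 ± 0.64 (SE, adjusted p = 1.4e-11). Granzyme A (Gzma; mm9 chromosome 13, 113884035 to 113891189) was at 6450, 3986, 3564 and 3645 FPKM against 5.72, 2.39, 17.2, 4.67 and 14.4. It differed by 10.02 ± 0.47 (adjusted p = 1.72e-13), and library 1 was the highest of the cultured libraries. Further members of the granule machinery were kept higher, among them perforin (Prf1, 4.10), which opens the target membrane, Gzmc (4.67) and the granule membrane gene Nkg7 (4.67). The death ligand Fasl was at 50.1, 63.4, 79 and 73.3 FPKM against 0.331, 0.478, 2, 6.68 and 1.83 (5.13 ± 0.36, adjusted p = 1.74e-11).

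NK receptors of the C-type lectin families were higher than in stage 1 as well. Before culture, the DN1eP libraries held Klrc1 at 294 to 433 FPKM, Klrd1 at 381 to 876, Klre1 at 115 to 283 and Fcer1g at 429 to 485. These lie above every cultured library, so the differences are no gain over the starting cells. Gzmb (210 to 978) and Gzma (454 to 954) were below every cultured library there. The DN1eP libraries are all in the lower-median set. Klrc1, which encodes the inhibitory receptor NKG2A, was at 121, 228, 257 and 197 FPKM in DN1eP-NKT. In NKT-1 it was at 0.997, 0, 2.5, 19.9 and 0.443, so library 4 stood above the other stage 1 libraries and still below every cultured one. The difference was 6.57 ± 0.63 (adjusted p = 4.26e-08). Its partner CD94 (Klrd1) was at 184 to 226 FPKM against 4.21 to 86.5 (4.57 ± 0.54), and the activating receptor NKG2D (Klrk1) differed by 4.63. Klre1 was at 35.9 to 42.2 FPKM against 0 to 5.39 (5.08 ± 0.37). Fcer1g, a signalling adaptor of NK receptors, was at 196 FPKM in library 1 and 99.4 to 106 in libraries 2 to 4, against 2.18 to 24.2 (4.45 ± 0.42). The Ly49 gene Klra9 was at 66 FPKM in library 1 and 142 to 145 in libraries 2 to 4, against 0.784 to 12 (5.63 ± 0.55). Reads of Klra genes may be split between near-identical copies, so the member that rose is uncertain. All 9 tested NK markers were kept higher, and their sum was 703, 512, 534 and 507 FPKM in DN1eP-NKT and 13.1 to 134 in NKT-1, where library 4 held the 134. NKp46 (Ncr1), a defining NK cell receptor, was at 36.2 FPKM in DN1eP-NKT library 1 and 1.17 to 4.23 in libraries 2 to 4, and was listed at 0 in NKT-1. Whether NK cells are among the cultured cells was not tested.

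Ccl5, a chemokine stored by cytotoxic T cells, was at 123, 167, 183 and 209 FPKM against 3.06, 0, 13.9, 31.7 and 5.34 (6.11 ± 0.38, adjusted p = 3.97e-12). In the DN1eP libraries before culture, Ccl5 was at 5221 to 9317 FPKM. Xcl1 and Ccl4, chemokines secreted on activation, were kept higher by 3.84 and 3.31. The IL-12 receptor chain Il12rb2, through which IL-12 drives IFN-γ, differed by 4.86.

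Among the largest rises were 3 neighbours on chromosome 7, the Ifitm genes, whose membrane proteins restrict virus entry. Ifitm2 (mm9, 148140738 to 148141860) was at 1115, 2737, 3152 and 3559 FPKM in DN1eP-NKT and at 2.95, 0, 14.3, 3.89 and 3.4 in NKT-1 (10.17 ± 0.52, adjusted p = 1.03e-12). Library 1 was the lowest cultured library, at 0.354 times the mean of the others. Ifitm3 (mm9, 148195489 to 148196643) was at 382, 959, 1153 and 1218 FPKM against 0 to 4.7 (9.11 ± 0.56), with library 1 at 0.344 times the mean of the others. Ifitm1 (mm9, 148153328 to 148155726) had no such gap, at 687, 673, 891 and 850 FPKM against 0.132, 0, 5.97, 0.405 and 0 (9.11 ± 0.46). Without DN1eP-NKT library 1 the 3 differences were 10.54, 9.49 and 9.16. The part of the stromal layer in the Ifitm2 and Ifitm3 levels was not tested. Of 24 interferon response genes 11 were kept higher and 0 lower (median 0.63), against 9.65% and 10.5% of all tested genes. Apart from the Ifitm genes, members that rose did so by 0.71 to 1.47, among them the antiviral GTPase Mx1 (1.47 ± 0.36) and Irf7 (1.33), a factor that amplifies interferon. Ifi27l2a (1.17) had a ratio of 0.294, and was not called without the term (0.52, adjusted p = 0.384). Classical targets such as Isg15 (0.54), Ifit1 (0.49) and Rsad2 (-0.49) were not called.

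Genes of the IL-2 and STAT5 response were higher in DN1eP-NKT than in NKT-1. Whether the added IL-2 raised them was not tested. Of 22 such genes, 17 were kept higher and 0 lower, against 9.65% and 10.5% of all tested genes. Their median log2 difference was 2.41. The same 22 genes summed to 5454 to 6957 FPKM in DN1eP-NKT and 287 to 447 in NKT-1, with Gzmb the largest part. Il2ra (mm9 chromosome 2, 11564419 to 11614821), the α chain of the IL-2 receptor, was at 111, 92.7, 113 and 112 FPKM against 0.205, 0.763, 0.245, 1.23 and 0.299. The groups did not overlap and the difference was 6.11 ± 0.35 (adjusted p = 2.5e-13). The feedback inhibitors of STAT5 signalling rose, Cish from 4.7 ± 2.53 to 135 ± 17.5 FPKM (4.48 ± 0.31) and Socs2 from 0.541 ± 0.147 to 35.8 ± 5.13 (4.53 ± 0.29). Both were also above NKT-1 in uncultured cells. Cish was at 29.8 to 49.1 FPKM in DN1eP and 18.7 to 40.9 in NKT-3, and Socs2 at 7.83 to 9.73 and 7.15 to 18.8. Lif, also in the list, was at 0 to 0.253 and 0 to 0.217 there, below NKT-1. The survival kinase gene Pim2 (3.72) and the circadian and NK cell factor Nfil3 (3.14) were also kept higher. TNF receptor family costimulators in the list were kept as well, Tnfrsf9 (4-1BB) by 2.65, Tnfrsf18 (GITR) by 2.45 and Tnfrsf4 (OX40) by 1.81. Socs3 (1.47), Ccnd3 (1.01), Ctla4 (0.19), Mcl1 (0.08) and Ccnd2 (0.02) were not called.

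STAT proteins bind the palindrome TTCNNNGAA, which reads the same on both strands and was the 1 motif searched. In RefSeq promoter windows of 300 bases (GRCm38.p6, 250 before and 50 after the start), 704 of 8242 tested genes with a window held it (8.54%), as did 86 of 803 kept higher genes (10.7%). Of the 17 kept members of the list, 14 had a window and 5 held the motif. In Cish and Gzmb it lay after the start. The 250 bases before the start of the other 3 are shown with the motif in capitals, to let the matches be seen beside the genes that rose. Tnfrsf9 lies at chr4:150927749-150927998 (plus strand), Tnfrsf18 at chr4:156026072-156026321 (plus strand) and Lta, a TNF family cytokine that rose by 2.38, at chr17:35205352-35205601 (minus strand).
Tnfrsf9: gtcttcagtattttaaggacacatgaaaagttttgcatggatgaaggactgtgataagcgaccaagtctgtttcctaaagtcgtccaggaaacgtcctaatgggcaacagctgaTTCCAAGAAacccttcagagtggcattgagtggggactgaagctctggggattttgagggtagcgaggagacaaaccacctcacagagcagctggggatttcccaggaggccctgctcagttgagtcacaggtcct
Tnfrsf18: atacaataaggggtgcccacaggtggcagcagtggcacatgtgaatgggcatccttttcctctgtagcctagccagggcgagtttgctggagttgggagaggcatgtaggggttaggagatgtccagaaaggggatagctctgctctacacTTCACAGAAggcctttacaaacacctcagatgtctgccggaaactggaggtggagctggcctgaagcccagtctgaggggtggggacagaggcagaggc
Lta: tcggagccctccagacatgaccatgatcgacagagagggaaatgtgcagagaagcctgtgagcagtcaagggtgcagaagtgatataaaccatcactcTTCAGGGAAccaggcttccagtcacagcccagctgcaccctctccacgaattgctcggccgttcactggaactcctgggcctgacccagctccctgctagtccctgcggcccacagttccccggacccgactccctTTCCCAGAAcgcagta
The motif begins 136 bases before the start in Tnfrsf9 and 99 in Tnfrsf18, and at 152 and 16 in Lta. A match is a description of these letters and does not show that a factor binds there.

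Receptor chains for IL-2 and related cytokines did not move together. Of 12 receptors and kinases, 5 were kept higher and 2 lower, against 9.65% and 10.5% of all tested genes. The β chain Il2rb, shared by the IL-2 and IL-15 receptors, rose from 92.4 ± 29.9 to 506 ± 25.4 FPKM (1.98 ± 0.21). Il4ra was at 59.9, 66.1, 69 and 67.5 FPKM against 1.17, 0.989, 0.329, 1.69 and 1.52 (4.71 ± 0.30, adjusted p = 1.68e-12). Il15ra (1.57) and Il21r (1.31) also rose. The common γ chain Il2rg (0.24), Il7r (0.02) and the kinases Jak1 (-0.18) and Jak3 (-0.07) were not called, and Stat5b (-1.17) and Il9r (-1.16) were kept lower. Without DN1eP-NKT library 1 or NKT-1 library 2 the lower count was 1, and without the term 0, with Stat5b at 0.41 (adjusted p = 0.713) and Il9r at -0.73 (adjusted p = 0.0965).

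Secreted cytokines moved in both directions. Of 18 tested, 7 were kept higher and 3 lower, against 9.65% and 10.5% of all tested genes. Ifng, the main cytokine of NKT1 cells, was at 114, 148, 123 and 93.2 FPKM against 1.67, 1.61, 1.32, 15.5 and 8.38 (4.83 ± 0.89, adjusted p = 0.000312). Lif, a cytokine of the IL-6 family, was at 32.7, 64.7, 81.3 and 61.8 FPKM against 1.98, 6.5, 1.2, 0.85 and 0.722 (3.95 ± 0.37). Csf2 (GM-CSF) was at 5.75 to 21.5 FPKM against 0 to 0.403 (3.76 ± 0.41). The regulatory cytokine Il10 was at 24.8 FPKM in library 1 and 5.52 to 10.3 in libraries 2 to 4, against 0 to 0.0563 (3.37 ± 0.30). In the opposite direction, Il4 (-1.22), Il21 (-2.05) and Csf1 (-1.10) were kept lower, while Il13 was not called (-0.34). Csf1 was at -0.08 without the term (adjusted p = 0.924).

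Genes that mark early NKT cells and the NKT2 subset were the largest falls. Of 17 such genes, 13 were kept lower and 1 higher (Socs2), against 10.5% and 9.65% of all tested genes. Their median log2 difference was -3.51. Within the higher-median set 13 were kept lower, but the rule for keeping a gene already fixes the direction there. The list was drawn up with earlier results of these data known. Folr4 (mm9 chromosome 9, 14690258 to 14708395), a member of the folate receptor family, was at 2.17, 0.354, 0 and 1.47 FPKM in DN1eP-NKT. In NKT-1 it was at 194, 323, 269, 335 and 208, a difference of -7.38 ± 0.46 (adjusted p = 1.57e-11). Ccr9, the receptor for the thymic and gut chemokine CCL25, was at 0.894, 0.178, 0.393 and 0.922 FPKM against 89.8, 145, 110, 130 and 82.8 (-6.30 ± 0.87, adjusted p = 1.02e-05). No cultured library came near the lowest stage 1 library for either gene.

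Slamf6, the homotypic SLAM receptor needed for NKT selection (Ly108 protein), was at 0.329 FPKM in library 1 and listed at 0 in libraries 2 to 4, against 58.3, 84.6, 79.8, 81.1 and 42.2 (-6.08 ± 0.61). The starting DN1eP cells were sorted as Ly108-negative, and Slamf6 was at 0.174, 13, 12.7 and 7.11 FPKM in their libraries, which lie in the lower-median set. Ramp1, a subunit of the receptor for the neuropeptide CGRP, was at 0.324 to 1.04 FPKM against 66 to 125 (-6.04 ± 0.29). Plac8 was at 0.752, 16.4, 4.93 and 24.7 FPKM against 463 to 1182 (-5.98 ± 0.64). Enzyme and transporter genes completed the 8 largest falls. Akr1c18, a steroid dehydrogenase, was at 0 to 0.0636 FPKM against 31.6 to 112 (-5.63 ± 0.58), the cation transporter Slc22a3 at 0 to 0.13 against 4.51 to 45 (-5.13 ± 0.46) and the alcohol dehydrogenase Adh1 at 0 to 1.09 against 29.2 to 127 (-4.74 ± 0.46). The IL-25 receptor Il17rb, which marks the IL-4 producing and IL-17 producing subsets, fell by 4.49. Il13 (-0.34), Ramp3 (-0.79) and Cd24a (0.26) were not called.

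Among the genes of the sort gate, Cd44 was at 34.6, 52.1, 60.6 and 58.8 FPKM in DN1eP-NKT and at 4.98, 3.45, 4.72, 3.69 and 2.22 in NKT-1 (3.01 ± 0.27, adjusted p = 8.44e-10). NKT-1 cells were gated as CD44-negative, so this difference goes with the gate. Klrb1c, one of the genes of NK1.1, was at 56.8, 11.3, 13.1 and 14 FPKM against 4.2 to 8.47. It was kept at 1.56 ± 0.40 (adjusted p = 0.00551), rests in part on library 1 (1.04 without it), and within the higher-median set stood at 1.63 with adjusted p = 0.0739. Cd24a, at 0.191 to 0.91 against 0 to 0.789 FPKM, did not differ beyond its error (0.26 ± 0.55, adjusted p = 0.788).

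Lineage regulators fell more often than they rose, 14 lower and 5 higher of 30 with a median of -0.52. Of all tested genes, 10.5% were kept lower and 9.65% higher. Zbtb16 (mm9 chromosome 9, 48462402 to 48644050) was at 6.9, 4.51, 5.07 and 5.42 FPKM in DN1eP-NKT. In NKT-1 it was at 80.7 and 113 in libraries 1 and 2, and at 13.1, 16.6 and 9.77 in libraries 3 to 5. All 5 lay above the cultured libraries, and the sets differed from each other. The difference was -3.87 ± 0.29 (adjusted p = 2.34e-11), -3.91 within the higher-median set, and -2.23 with adjusted p = 0.0596 without the term. Egr2, which acts upstream of Zbtb16 after TCR signalling, was at 4.18, 3.72, 4.1 and 0.826 FPKM against 16.4, 11.1, 10.3, 7.3 and 11.7 (-1.87 ± 0.35, adjusted p = 0.000182). Egr3 was at 3.14 to 7.26 FPKM, below NKT-1 libraries 1 and 2 (17 and 14.6) and above libraries 3 to 5 (0.391, 0.236 and 0.0389). Its kept difference of -1.47 turns to 0.76 without the term (adjusted p = 0.604). Factors of early T cells were also kept lower, Lef1 from 100 ± 23.4 to 8.59 ± 2.48 FPKM (-3.51 ± 0.28), Tox (-2.46), Id3 (-2.09), Tcf7 (-1.62) and Myb. Tcf7 was not called without the term (-0.98, adjusted p = 0.0958). Without the term 7 of the list were kept lower rather than 14.

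Gata3, needed for NKT2 cells, was at 43.1 to 54 FPKM against 59.3 to 91.4 (-0.54 ± 0.18, adjusted p = 0.0259). It was no longer called within the higher-median set (-0.55, adjusted p = 0.0834), or without DN1eP-NKT library 1 (-0.50), DN1eP-NKT library 2 (-0.50) or NKT-1 library 2 (-0.45). T-bet (Tbx21), which drives the NKT1 program, was at 19.9, 39.8, 49.6 and 57.6 FPKM against 14.5, 30.2, 2.2, 2.99 and 1.89. DN1eP-NKT library 1 lay below NKT-1 library 2, and the difference of 0.75 ± 0.30 was not called (adjusted p = 0.0713). It was called without DN1eP-NKT library 1 (1.07, adjusted p = 0.00675) or without NKT-1 library 2 (0.91, adjusted p = 0.0496). Tbx21 was also called without the term (2.49, adjusted p = 0.0471) and after upper-quartile scaling (0.83, adjusted p = 0.034). The other T-box factor, Eomes, was at 54.9 FPKM in library 1 and 4.65, 6.27 and 6.16 in libraries 2 to 4, against 0.0168 to 0.544. It was kept at 3.15 ± 0.45 (adjusted p = 4.88e-06), and at 2.38 without library 1. Bhlhe40, a repressor that supports IFN-γ output, rose from 8.06 ± 7.11 to 67.1 ± 15.4 FPKM (3.49 ± 0.73), and Prdm1 (1.43) and Runx3 (0.96), regulators of effector cells, rose too.

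**Figure D3:**
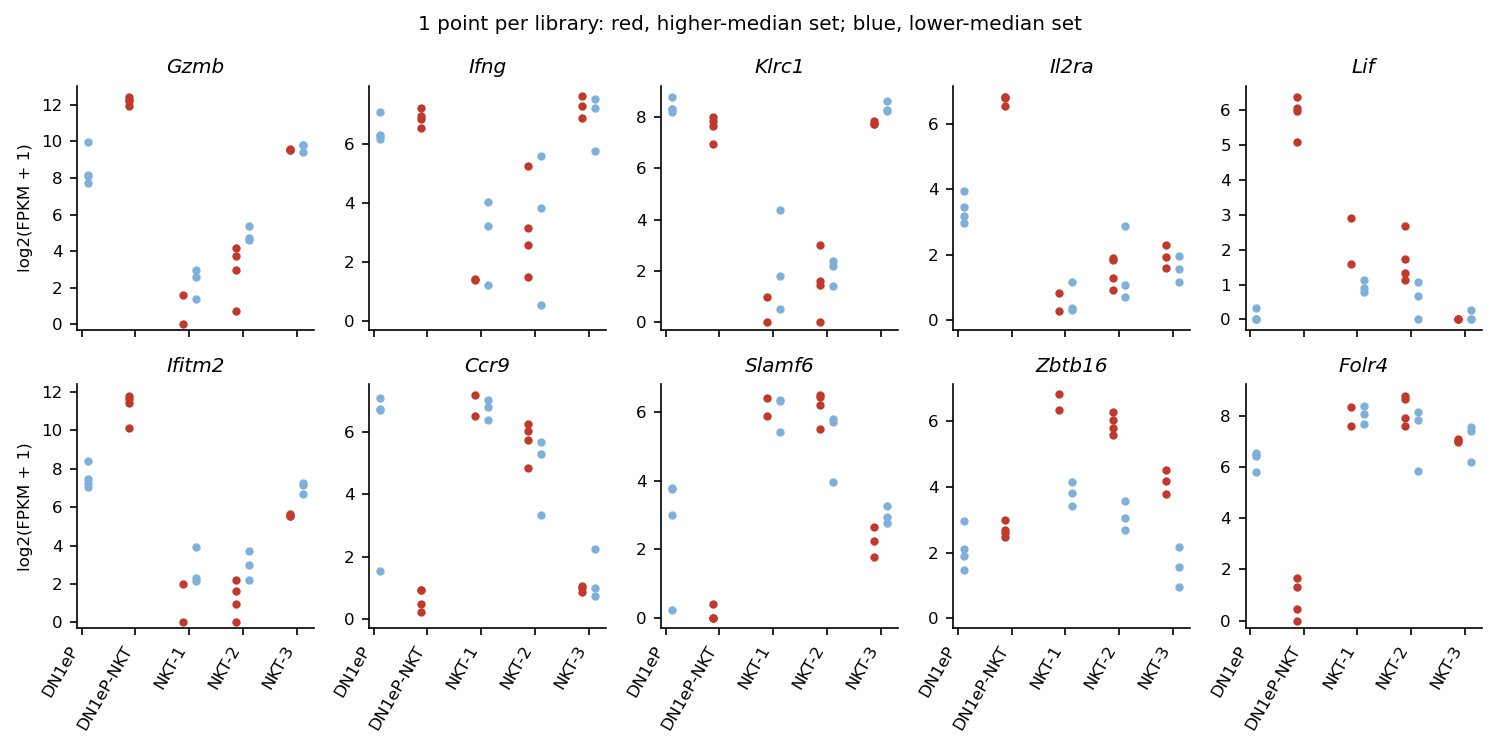
Levels of 10 genes in all 26 libraries, as log2(FPKM + 1) on the vertical axes and the 5 groups on the horizontal axes, coloured by library set. Gzmb was at 680 to 889 FPKM in NKT-3 and 3940 to 5388 in DN1eP-NKT. Slamf6 was at 2.45 to 8.58 in NKT-3 and 0 to 0.329 in DN1eP-NKT, and Zbtb16 differs between library sets inside each thymic stage.

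Part of the T cell receptor complex was lower, by less. Of 26 genes of the TCR complex and its proximal signalling, 11 were kept lower and 2 higher, with a median of -0.47, and 13 were not called. The shares of all tested genes were 10.5% lower and 9.65% higher. The CD3 chains Cd3d and Cd3g were kept lower, at -0.79 and -0.81, and Cd247 (CD3ζ) was at 87.6 to 128 FPKM against 206 to 390 (-1.45 ± 0.23), while Cd3e was not called (-0.27). Cd5, an inhibitor of TCR signalling whose level follows signal strength, was at 9.26, 19.1, 14.7 and 19.2 FPKM against 119, 150, 62.5, 74.3 and 72.9 (-3.14 ± 0.22, adjusted p = 1.14e-11). The related receptor Cd6 fell from 123 ± 32.7 to 21 ± 8.38 FPKM (-2.25 ± 0.26). The coreceptor Cd4 was at 2.29 to 6.16 FPKM against 30.1 to 80.5 (-4.50 ± 0.81, adjusted p = 0.000236). The SLAM adaptor SAP (Sh2d1a), required for NKT cells, was kept lower (-2.04), as was Themis (-1.96), a signalling protein of thymocyte selection. Kinases and adaptors such as Lck (-0.48), Zap70 (-0.46), Lat (0.24) and Fyn (-0.19) were not called. The Ras activator Rasgrp1 rose from 11.9 ± 9.16 to 104 ± 13.5 FPKM (2.12 ± 0.29).

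Costimulatory and inhibitory receptors moved in both directions, 10 higher and 8 lower of 21, against 9.65% and 10.5% of all tested genes. The inhibitory receptor PD-1 (Pdcd1) was at 5.05, 5.52, 6.56 and 5.29 FPKM against 161, 193, 347, 278 and 280 (-4.69 ± 0.32, adjusted p = 8.9e-12). Cd28 fell from 161 ± 25.2 to 63.5 ± 9.2 FPKM (-1.42 ± 0.27), and Icos (-1.77), Cd27 (-1.47), Btla (-1.75) and Cd200 (-2.84) were kept lower. Other inhibitory receptors rose. Tim-3 (Havcr2) was at 9.07 to 15 FPKM against 0 to 0.101 (3.54 ± 0.39), Cd200r1 at 21.2 to 29.2 against 1.16 to 2.84 (3.62 ± 0.37), and Tigit differed by 2.83. Ctla4 (0.19) and Lag3 (-0.31) were not called.

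Homing and adhesion genes gave 10 kept higher and 6 lower of 23, against 9.65% and 10.5% of all tested genes. Ccr7, which guides cells to lymph nodes and the thymic medulla, was at 4.65, 2.9, 3.65 and 2.58 FPKM against 57.8, 106, 89.9, 83.4 and 74.3 (-4.06 ± 0.69, adjusted p = 0.000128). Ccr4 (-2.48), Cxcr4 (-1.95) and the α4 integrin gene Itga4 (-1.97) were kept lower too, and none was called without the term (-1.58, -0.32 and -0.79, adjusted p = 0.0782, 0.793 and 0.335). Cxcr4, at 7.14 to 22.3 FPKM, and Itga4, at 0.672 to 1.77, overlapped NKT-1 libraries 3 to 5. Cxcr3 (1.03, and 0.55 with adjusted p = 0.303 without the term), the retention receptor Cd69 (2.78) and the collagen-binding integrin gene Itga1 (2.82) were kept higher. Itga1 was at 4.21 FPKM in library 1 and 10.5 to 11.6 in libraries 2 to 4. The egress genes S1pr1 (0.83) and Klf2 (0.27) were not called.

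Of 18 NKT17 genes, 4 were kept higher and 2 lower (median 0.30), against 9.65% and 10.5% of all tested genes. Without the term 2 were kept higher. The cytokines Il17a (-0.31) and Il22 (0.16) and the receptor Il23r (0.32) were not called. Cxcr6, which positions NKT cells in the liver, was at 399, 382, 475 and 500 FPKM against 124, 166, 462, 519 and 274. It overlapped the lower-median stage 1 libraries, so the kept difference of 1.63 ± 0.28 rests on the term (0.71, adjusted p = 0.305, without it). Ltb4r1, a leukotriene receptor gene, was at 0.828 FPKM in library 1 and 6.13 to 7.68 in libraries 2 to 4, against 0 to 0.199 (2.24 ± 0.44), a ratio of 0.122. Nrp1 fell from 12.5 ± 2.93 to 1.18 ± 0.506 FPKM (-2.80 ± 0.24) and the kinase gene Blk from 17 ± 1.8 to 0.811 ± 0.598 (-3.14 ± 0.71).

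Notch target genes did not move together in the cells cultured with a Notch ligand. Of 11 tested genes, 3 were kept higher and 3 lower, against 9.65% and 10.5% of all tested genes. Dtx1, a Notch target in T cells, was at 26.1, 89.3, 91.9 and 97.9 FPKM against 7.8, 10.3, 1.39, 0.884 and 0.323 (2.83 ± 0.33, adjusted p = 1.21e-07), with library 1 at 0.280 times the mean of the others. The feedback inhibitor Nrarp rose from 1.67 ± 1.98 to 17.8 ± 4.73 FPKM (1.69 ± 0.30). In contrast, Hes1 was at 0.294 to 1.13 FPKM against 7.26 to 14.3 (-2.89 ± 0.60) and Hey1 at 0 to 0.404 against 1.38 to 12.8 (-3.34 ± 0.57), both transcriptional repressors that Notch induces. Notch1 (0.34) and Ptcra (-0.08) were not called.

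**Figure D4:**
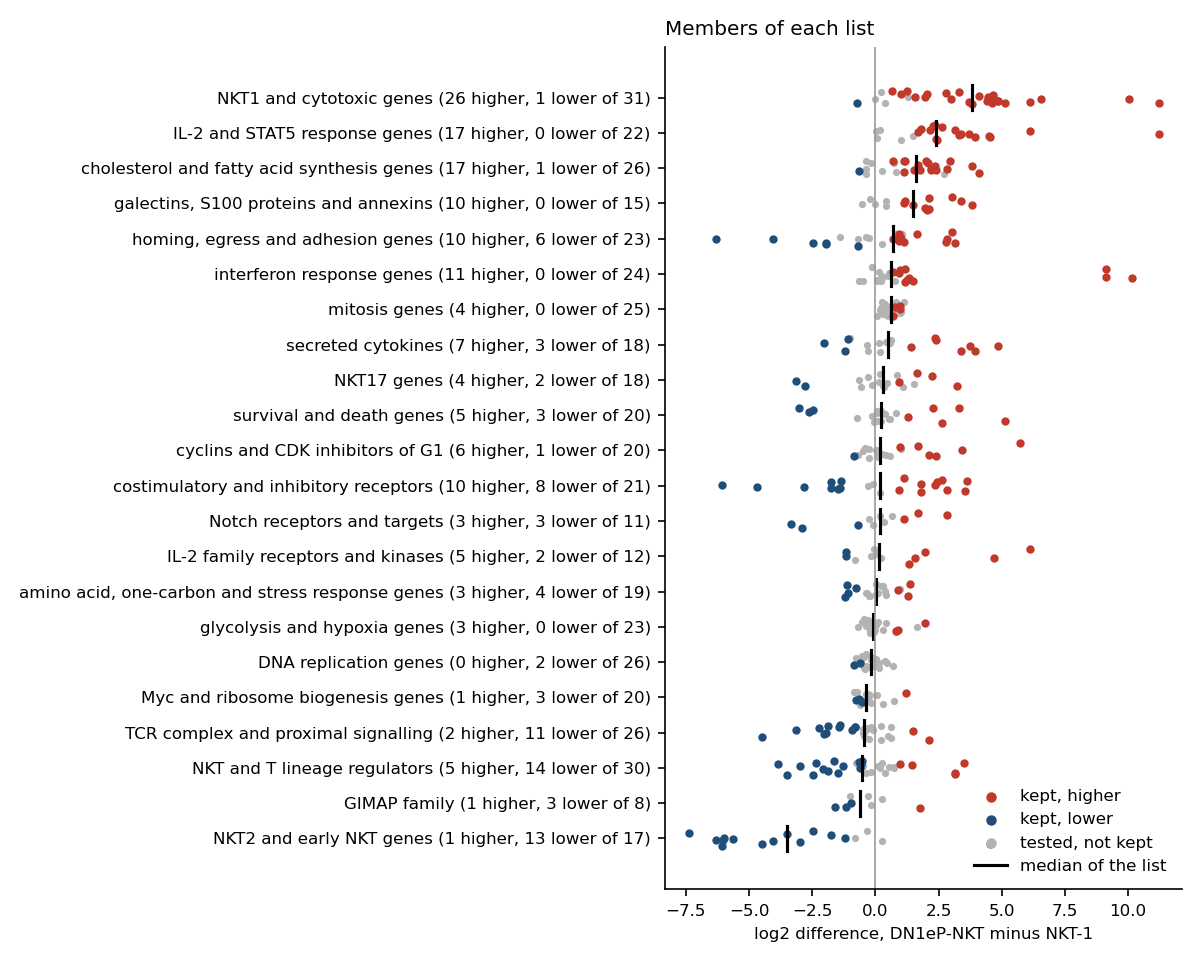
Log2 difference (horizontal axis, DN1eP-NKT minus NKT-1) of every tested member of 22 gene lists (vertical axis, with kept counts), 1 point per gene, kept members in colour and the list median as a bar. The medians run from -3.51 for NKT2 and early NKT genes to 3.84 for NKT1 and cytotoxic genes.

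Of 25 mitosis genes, 4 were kept higher and 0 lower, against 9.65% and 10.5% of all tested genes. Their median log2 difference was 0.63, and that of all tested genes -0.10. The proliferation marker Mki67 was at 110, 99.6, 106 and 110 FPKM against 54, 74.3, 20.5, 20.1 and 10.8 (0.98 ± 0.28, adjusted p = 0.0125), and the kinetochore gene Cenpf rose from 5.72 ± 2.64 to 15.4 ± 1.72 FPKM (0.97 ± 0.29). Mki67 was not called with only the compared groups in the fit (0.74, adjusted p = 0.0732), nor Cenpf with a pseudocount of 0.1 (adjusted p = 0.0943). The spindle genes Bub1 (0.78) and Prc1 (0.69) lost their call without DN1eP-NKT library 3 or 4, Bub1 also without NKT-1 library 2 or 3 and Prc1 without NKT-1 library 1 or without the term (0.43, adjusted p = 0.192). The count was 7 without DN1eP-NKT library 1 and 2 without library 3 or 4. Of 26 DNA replication genes, 0 were kept higher and 2 lower, against the same shares of all tested genes. The 2 were the helicase subunits Mcm2 (-0.60) and Mcm6 (-0.86). Their sign turned without the term (0.26 and 0.22), and 1 rather than 2 was kept without DN1eP-NKT library 1 or 2, or NKT-1 library 2, 3 or 5.

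Of 6 genes for inhibitors of cyclin-dependent kinases, 4 were kept higher. Cdkn1b (0.57, adjusted p = 0.0654, and 0.66 with 0.039 without the term) and Cdkn2d (0.28, adjusted p = 0.528) were not called, and Cdkn2c rose by 0.96. p21 (Cdkn1a) was at 77.6, 59.6, 71.5 and 69.4 FPKM against 0.509, 0.472, 0.0555, 0 and 0.581 (5.71 ± 0.38, adjusted p = 2.9e-12). Cdkn2a, the locus of p16 and p19Arf, was at 26.6, 47.2, 52 and 46.2 FPKM against 4.55, 4.45, 0.22, 0.198 and 0.326 (3.44 ± 0.40), and the neighbouring Cdkn2b at 6.83 to 10.2 against 0 to 0.678 (2.38 ± 0.24). Cdk6 (2.11 ± 0.46) and Ccnd1 (1.67), which drive entry into the cycle, were kept higher as well. Ccnd1 was at 0.598 FPKM in library 1 and 3.17 to 5.41 in libraries 2 to 4. In all 6 of 20 G1 genes were higher and 1, Cdk2, lower, against 9.65% and 10.5% of all tested genes. Cdk2 was not called without the term (-0.52, adjusted p = 0.156).

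Among the metabolic lists examined, that of cholesterol and fatty acid synthesis had the most kept genes. Of 26 cholesterol and fatty acid synthesis genes, 17 were kept higher and 1 lower (the desaturase gene Scd2), with a median of 1.61. The shares of all tested genes were 9.65% higher and 10.5% lower. Scd2 stood at 0.08 without the term (adjusted p = 0.889). Squalene epoxidase (Sqle) was at 24.3, 45.7, 50.9 and 46.6 FPKM against 1.78, 1.9, 1.27, 0.413 and 0.334 (4.10 ± 0.32, adjusted p = 7.59e-11). Idi1 rose from 8.94 ± 3.22 to 69.5 ± 13 FPKM (2.96 ± 0.31). The regulator Srebf2 (1.52) and its target Insig1 (2.40) rose too, while the fatty acid genes Fasn (0.25), Acaca (-0.19), Acly (-0.39) and Srebf1 (-0.39) were not called. Library 1 was lower than libraries 2 to 4 here, with a median ratio of 0.679 over the 17 genes, and 19 members were kept higher without it.

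Fewer members of the other metabolic lists were kept. Of 23 glycolysis and hypoxia genes 3 were kept higher and 0 lower (median -0.11), against 9.65% and 10.5% of all tested genes. The higher count was 6 when DN1eP-NKT library 1 was left out. Bnip3, a mitochondrial protein induced by hypoxia, rose to 26.3 ± 8.25 from 9.58 ± 5.62 FPKM (1.96 ± 0.27), and the glucose transporter gene Slc2a1 to 34.3 ± 10 from 12.7 ± 4.8 (0.80 ± 0.21). Of 19 amino acid, one-carbon and stress response genes 3 were kept higher and 4 lower, against 9.65% and 10.5% of all tested genes. Among the lower was Phgdh, which opens serine synthesis, at 91.8 to 116 FPKM against 132 to 309 (-1.20 ± 0.29), which was not called without the term (-0.87, adjusted p = 0.0629). Without DN1eP-NKT library 1, 2 and 2 were kept. Of 20 Myc and ribosome biogenesis genes 1 was kept higher and 3 lower (median -0.38), against the same shares of all tested genes. With DN1eP-NKT library 1 left out, the counts were 2 and 0. Myc itself was not called (0.75).

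Galectins, S100 proteins and annexins rose in 10 of 15 cases with 0 lower (median 1.49), against 9.65% and 10.5% of all tested genes. S100a4, a calcium-binding protein of effector cells, was at 1398, 1672, 1712 and 1621 FPKM against 168, 145, 79.5, 61.5 and 50.3 (3.39 ± 0.38, adjusted p = 1.17e-07). S100a6 was at 735 to 1164 FPKM against 189 to 626 (2.12 ± 0.28). Anxa1 was at 15 FPKM in library 1 and 46 to 46.9 in libraries 2 to 4, against 0.832 to 8.47 (3.82 ± 0.52), a ratio of 0.323. Lgals1 and Lgals3 were kept higher by 2.05 and 2.11. Stromal cells also express several of these genes, and the part of the layer was not tested.

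Survival genes of the BCL2 family moved in opposite directions. Bcl2 was at 98.1, 83, 93.2 and 97.5 FPKM against 6.27, 6.43, 3.16, 4.79 and 3.92 (3.30 ± 0.22, adjusted p = 3.73e-12), and Bcl2l1 (BCL-XL) differed by 2.27. The pro-death member Bim (Bcl2l11) was at 51.4, 24.9, 27.4 and 28 FPKM against 0.906 to 4.51 (2.64 ± 0.32), and Bax rose by 1.29. Bcl2a1d, of the A1 group, was at 13.3 to 17.8 FPKM against 103 to 299 (-3.02 ± 0.19). Bcl2a1a (-2.64) and Bcl2a1b (-2.46) fell with it, and reads may be split between these near-identical copies. Of 8 GIMAP genes, GTPases that support lymphocyte survival, Gimap3 was kept higher (1.75 ± 0.31) and 3 were lower, including Gimap6 at 28 to 49.7 FPKM against 80.2 to 287 (-1.61 ± 0.26).

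Stages 2 and 3 place these differences. The tests against NKT-2 and NKT-3 use the same 4 DN1eP-NKT libraries and called 20.6% and 26.2% of all tested genes, so their values are given side by side. Gzmb was above each stage, by 8.95 log2 units against stage 2 (adjusted p = 8.81e-11) and 3.21 against stage 3 (adjusted p = 0.000326), and Il2ra by 5.20 and 4.96. Ifitm2 stood 9.99 and 5.77 above them. Several genes that differed from stages 1 and 2 were not called against stage 3. Klrc1 was at 6.25 above stage 2 and at -0.03 against stage 3 (adjusted p = 0.982), Ifng at 3.81 and 0.00 (adjusted p = 0.999), Bcl2 at 4.10 and 0.35 (adjusted p = 0.236), and Ccr9 at -4.79 and -0.65 (adjusted p = 0.624). A p that misses the threshold does not show equal levels. Other genes were below every stage, Folr4 by -7.14 and -6.38 and Ramp1 by -6.22 and -3.89. Klrb1c was at 440 to 563 FPKM in stage 3, which was gated as NK1.1-positive, and DN1eP-NKT stood at -4.66 against it (adjusted p = 6.66e-10).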

How the data were processed

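RNA was sequenced from FACS-sorted cells and from cells recovered after culture. Libraries were made with the SMARTer Ultra Low Input or the TruSeq kit, per the labels' protocols, which do not say which sample had which. TopHat2 2.0.6, Cufflinks 2.1.1 and mm9 are named, per the submitters' processing notes. The deposited values are FPKM per gene, with an interval, made by the authors. No counts were used. Depth was estimated roughly as the inverse of the smallest common step of FPKM times transcript length, over genes with a single transcript in GENCODE.

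FPKM was summed per gene symbol and transformed as log2(FPKM + 1), and the 11663 genes that reached 1 FPKM in no fewer than 4 libraries entered the test. limma 3.58.1 in R 4.3.3 was fitted to all 26 libraries with a coefficient per group and a library set term (median FPKM of expressed genes above or below 11), with trend and robust moderation and Benjamini-Hochberg adjustment over all tested genes. Calls were at an adjusted p under 0.05. The script was tested on simulated data. Replicate numbers occur in both groups, but the labels do not say what they mark, so they were not taken as pairs. Residuals of same-numbered libraries correlated at 0.484, 0.142, 0.059 and -0.11. NKT-1 libraries 1 and 2 are alone in their set within the group, so their residuals mirror each other. With DN1eP-NKT library 1 they correlated at 0.484 and -0.484. These correlations therefore cannot decide on pairing. Alternatives were another pseudocount, filters, scalings, sets of libraries and terms, and each library left out. A fit with depth class as a further term was added after seeing the data. The named genes were 3 genes of the sort gates, 4 regulators, 5 genes of the stromal layer, up to 4 kept members of each list with the largest differences and a group mean of at least 5 FPKM, and the 8 largest kept rises and falls with a group mean of at least 10 FPKM and no overlap with any NKT-1 library. Members of the stroma list were left out of these largest rises and falls. The members and gene lists were chosen with earlier results of these data known. Some genes that the rule names are not reported here. Other genes named were picked from the lists after their values were seen. Coordinates are in mm9 as deposited, and promoters come from RefSeq GRCm38.p6, matched by symbol.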

Additional observations from a re-analysis of the deposited data

Results flagged for a closer look

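In 29 of 206 groups of 4 or 5 libraries, the highest or lowest library stood apart from the rest by Dixon's criterion. Its chance rate of about 1 of 20 is for independent, normally spread values, so it is no measure for these FPKM. A group with 1 library above 0 meets the criterion by construction, and the groups share libraries. DN1eP-NKT library 1 accounted for 12 of the 29. It was high for Klrb1c (56.8 FPKM, others 11.3 to 14), Fcer1g (196, others 99.4 to 106), Eomes (54.9, others 4.65 to 6.27), Gzma (6450, others 3564 to 3986) and Bcl2l11 (51.4, others 24.9 to 28). It was low for Klra9 (66, others 142 to 145), Dtx1 (26.1, others 89.3 to 97.9), Anxa1 (15, others 46 to 46.9) and Nop58 (68.5, others 109 to 117). Its low values of Slamf6 (0.329), Akr1c18 (0.0636) and Slc22a3 (0.13) stood above others listed at 0. This library is also the deepest of the 4 and has the lowest stroma sum. What sets it apart was not tested. DN1eP-NKT library 2 was low for Il2ra (92.7, others 111 to 113) and high for Nolc1 (39.4, others 33 to 33.9), and library 4 was low for Egr2 (0.826, others 3.72 to 4.18).

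In NKT-1, library 4 was high for Klra9 (12, others 0.784 to 1.42), Klrd1 (86.5, others 4.21 to 17), Klrc1 (19.9, others 0 to 2.5) and Fasl (6.68, others 0.331 to 2). Library 3 was high for Ifitm2 (14.3, others 0 to 3.89), Ifitm1 (5.97, others 0 to 0.405), Ltb4r1 (0.199, others 0 to 0.0522), Bgn (0.471, others 0 to 0.0506), Cxcl12 (0.209, others at 0) and Col3a1 (0.0354, others at 0). Library 2 was high for Ramp1 (125, others 66 to 80) and Lif (6.5, others 0.722 to 1.98). Library 1 was high for Col6a2 (0.0527, others 0 to 0.0134) and Dll1 (0.0192, others at 0).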

How the results depend on the processing

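Over 20 settings, 80 of the 102 kept named genes were called in the same direction under every setting that tests them. Most were named for large differences and the settings share libraries, so this share does not extend to all kept genes. Of all kept genes, 998 of 1126 higher and 595 of 1225 lower were also called without the term. Of the gene and setting pairs, 1993 kept their direction and side of the threshold, 75 lost the call, 4 gained it and 5 turned. The called lower genes numbered 845 with only DN1eP-NKT and NKT-1 in the fit, and the kept lower genes 725 with no library set term. The cause was not tested. Leaving out each library in turn gave 1008 to 1220 called higher, 1101 to 1363 called lower, 984 to 1208 kept higher and 1060 to 1332 kept lower. Without the term Mcm6 stood at 0.22, Mcm2 at 0.26 and Ddit4, a stress response gene, at 1.71, and Cd24a stood at -0.13 both in the higher-median set alone and with only the compared groups. With the replicate number as a block, 1081 genes were called higher and 1067 lower, and 1044 and 1006 were kept. Whether the numbers pair the samples is not settled, since the correlations of same-numbered libraries cannot decide it. Asns lost its call under most settings. The 4 DN1eP-NKT libraries lie in 1 set and 3 of them are shallow, which limits what low genes can show.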

Other observations

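The genes in this section were chosen after their values were seen, and all but Hmgcs1, of the cholesterol list, belong to no list. Further rises in DN1eP-NKT included effector and signalling genes. The drug efflux pump gene Abcb1a was at 83.3, 88.8, 91.1 and 91.2 FPKM against 0.0529 to 0.783 (5.55 ± 0.25, limma adjusted p = 1.85e-15). Stat4, which carries the IL-12 signal, was at 45.4 to 61.7 FPKM against 0.424 to 2.03 (4.82 ± 0.32). Fgl2 was at 61 FPKM in library 1 and 128 to 168 in libraries 2 to 4, against 0.278 to 1.36 (5.24 ± 0.40). Cysltr1, a receptor for cysteinyl leukotrienes, was at 23.7 to 46 FPKM against 0 to 0.34 (5.18 ± 0.47). The cytokine gene Il24 was at 35.5, 24.5, 26.6 and 15 FPKM and was listed at 0 in all 5 NKT-1 libraries. Klra5 was at 90.2 to 140 FPKM against 0.0996 to 14.8 (6.08 ± 0.56), with NKT-1 library 4 the highest stage 1 library and the same doubt about near-identical Klra copies.

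Further falls included enzymes and receptors. The epoxide hydrolase gene Ephx1 was at 5.72, 6.02, 9.97 and 10.4 FPKM against 133, 172, 158, 161 and 184 (-4.46 ± 0.26, limma adjusted p = 2.5e-13). The creatine kinase gene Ckb was at 1.27 to 4.68 FPKM against 41.7 to 91.4 (-4.73 ± 0.36). The retinal reductase gene Dhrs3 was at 0 to 1.33 FPKM against 16.5 to 76.5 (-4.00 ± 0.42). P2rx7, a channel opened by extracellular ATP, was at 0 to 1.13 FPKM against 6.36 to 25.3 (-4.07 ± 0.39), and Art2b, which can open it by ADP-ribosylation, at 0.571 to 3.98 against 18.9 to 72 (-3.95 ± 0.68). In the 4 cultured libraries both were under every stage 1 library.

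Other genes known from mesenchymal cells shared the low level of the stroma markers in DN1eP-NKT library 1. Thbs1 was at 4.48, 21.4, 30.9 and 25.7 FPKM, a ratio of 0.173 between library 1 and the mean of the others. Myl9 was at 1.96, 15.4, 23 and 24.2 FPKM and listed at 0 in NKT-1 (ratio 0.0938), and the fatty acid binding protein gene Fabp4 at 3.25, 15.1, 18.5 and 13.9 (ratio 0.205). Hmgcs1, an early enzyme of cholesterol synthesis, was listed at 0 in DN1eP-NKT library 1 and was at 57.8, 40.5 and 37 FPKM in libraries 2 to 4. In NKT-1 it was at 4.71 FPKM in library 2 and listed at 0 in the other 4, so all 0 values lie in the deeper libraries, and whether these are failed estimates was not tested.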
